A study of Sus scrofa with 19 samples.

Results

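The intracellular transducers of TGF-ß and BMP signals and the proteins that hold them back were examined as 1 set of 10 genes. The set was named by symbol: SMAD1, SMAD2, SMAD3, SMAD4, SMAD5, SMAD6, SMAD7, SMURF1, SMURF2 and SKP2. Each symbol was found in the authors' gene table and tied by its Ensembl identifier to the count files, and all 10 of the 25879 genes counted were present. All 10 passed the filter on low counts, which left 13552 genes for testing. The lowest member count in any library was 76 reads (SMAD6) and the highest 2034 (SMAD4).

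SMAD proteins carry the signal of activated TGF-ß family receptors from the cell membrane to the nucleus. SMAD2 and SMAD3 are phosphorylated by TGF-ß and activin receptors and SMAD1 and SMAD5 by BMP receptors, and both pairs join SMAD4 to bind DNA. SMAD6 and SMAD7 are induced by the pathway and block it, the HECT ubiquitin ligases SMURF1 and SMURF2 mark SMADs and receptors for degradation, and SKP2 is the substrate-binding F-box subunit of an SCF ubiquitin ligase best known for degrading the cell cycle inhibitor p27. In the heart, TGF-ß acting through SMAD3 is a driver of collagen synthesis by fibroblasts.

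The myocardium came from 19 pigs labelled as female large whites, with 1 poly(A) RNA library per pig. DOX pigs (n = 5) received doxorubicin and MYO pigs (n = 5) its liposomal form Myocet, each at 60 mg/m2 in 3 cycles, and the anterior wall was sampled at 3 months. RemoLV pigs (n = 3) had a coronary artery occluded for 90 min and then reperfused, and the remote posterior wall was sampled at 6 months. Hyper pigs (n = 3) had a stenosis of the aortic isthmus made with a stent and Control pigs (n = 3) no such injury (sham-operated in the sample labels, untreated in the study's methods), with the anterior wall taken at 6 months in both. DOX and MYO came from an earlier study, so drug, series and follow-up time cannot be told apart for these 10 libraries.

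The names of the libraries are in conflict, and every result below depends on them. Every sample column of the deposited table, 19 in all, ranks genes exactly as 1 count file does (Spearman correlation 1.0, next highest at most 0.992), and in 8 of the 19 the group names differ. The table's Control columns hold the 3 count files labelled RemoLV, its RemoLV columns hold the 3 files labelled Control, and DOX 5 and MYO 1 are exchanged. Results are given by the labels of the count files (file labels) unless the names of the table (table names) are stated, and which naming is right was not settled here. The 3 libraries labelled RemoLV were also low in markers of ventricular muscle. The ventricular light chain gene MYL2 was at 18.6 to 115 CPM there, counts scaled to library size, against 8975 to 18077 CPM in the other 16, IRX4 and IRX5 were at 3 counts or fewer, and the atrial MYL4 was at 6029 to 8130 CPM against at most 21.9. The Y-linked DDX3Y had 1143 to 2831 counts in every library of DOX and MYO, while the other 9 had 2 at most. This split follows the drug and goes against the label of female pigs. A sex difference can therefore not be told apart from drug, series or time when DOX or MYO is compared with the other groups. Total counts were 9527710 to 20370209 per library.

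Promoter sequences are shown for 2 members, SMAD7, which was called in no comparison, because the pathway is known to induce it directly and SKP2 because it differed most between groups. They were read from the RefSeq annotation and genome of Sscrofa11.1, from 250 bases before to 50 bases after the annotated gene start, 5′ to 3′ on the gene's strand. Capitals mark matches to the SMAD motifs searched on both strands, GTCTAGAC (2 joined SMAD boxes), CAGAC (its reverse complement is GTCTG) and GGCGCC. The SMAD7 window is chr1:98543875-98544174 (minus strand) and the SKP2 window chr16:21463020-21463319 (plus strand).
SMAD7: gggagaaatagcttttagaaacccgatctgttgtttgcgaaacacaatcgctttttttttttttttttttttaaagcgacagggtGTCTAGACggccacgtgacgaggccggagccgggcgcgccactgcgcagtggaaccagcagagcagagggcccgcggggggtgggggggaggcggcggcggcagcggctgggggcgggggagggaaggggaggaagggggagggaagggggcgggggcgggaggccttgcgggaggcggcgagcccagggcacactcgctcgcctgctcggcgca
SKP2: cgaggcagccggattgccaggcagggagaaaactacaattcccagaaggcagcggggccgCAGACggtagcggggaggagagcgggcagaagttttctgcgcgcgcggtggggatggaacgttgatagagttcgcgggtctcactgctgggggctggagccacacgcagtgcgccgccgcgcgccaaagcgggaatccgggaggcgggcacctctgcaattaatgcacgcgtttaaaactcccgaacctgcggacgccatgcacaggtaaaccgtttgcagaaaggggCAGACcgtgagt

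The SMAD7 window held the full palindrome GTCTAGAC 165 bases before the start, a match present in 38 of 19555 protein-coding promoters of the same length (0.2%). SKP2 had 2 CAGAC matches, at 190 bases before and 39 bases after the start, a motif present in 45% of those promoters. SMAD5 had 2 GTCTG and 2 GGCGCC matches, and SMAD2, SMURF1 and SMURF2 had 1 GGCGCC each, against 19.8% of promoters with at least 1. The windows of SMAD1, SMAD3, SMAD4 and SMAD6 had no match to these letters. Those of SMAD4 and SMAD6 had 35.7% and 37.7% G and C bases, against a median of 58.7% over all promoters. Whether the annotated starts are those used in this tissue was not tested. A match describes the sequence only. In the genome, SMAD2, SMAD7, SMAD4, SMAD6 and SMAD3 lie on chromosome 1, with 1001 kb between SMAD2 and SMAD7 and 263 kb between SMAD6 and SMAD3, and the others lie on chromosomes 8 (SMAD1), 2 (SMAD5), 3 (SMURF1), 12 (SMURF2) and 16 (SKP2).

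Levels between members were compared per length, as TMM-scaled CPM per kb of RefSeq exon sequence, a gene model other than the Ensembl one counted on. By file label, SMAD3 was highest in Control with 17.1 ± 8.15 CPM per kb (SD, n = 3). SMAD4 followed with 12.6 ± 2.30, SKP2 with 11.7 ± 6.87 and SMURF2 with 10.5 ± 3.44, 4 levels that do not separate beyond their spread. SMAD5 stood at 6.15 ± 0.877, below SMAD4 in every Control library. SMAD2 (2.95 ± 0.409), SMAD1 (2.82 ± 0.185) and SMAD7 (2.45 ± 0.902) were close to each other, and SMURF1 (1.82 ± 0.166) and SMAD6 (1.26 ± 0.485) were lowest, so that both inhibitory SMADs were among the scarcer transcripts of the set. SKP2 in libraries labelled RemoLV, 45.5 ± 16.0 CPM per kb, was the highest group mean of any member.

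**Figure D1:**
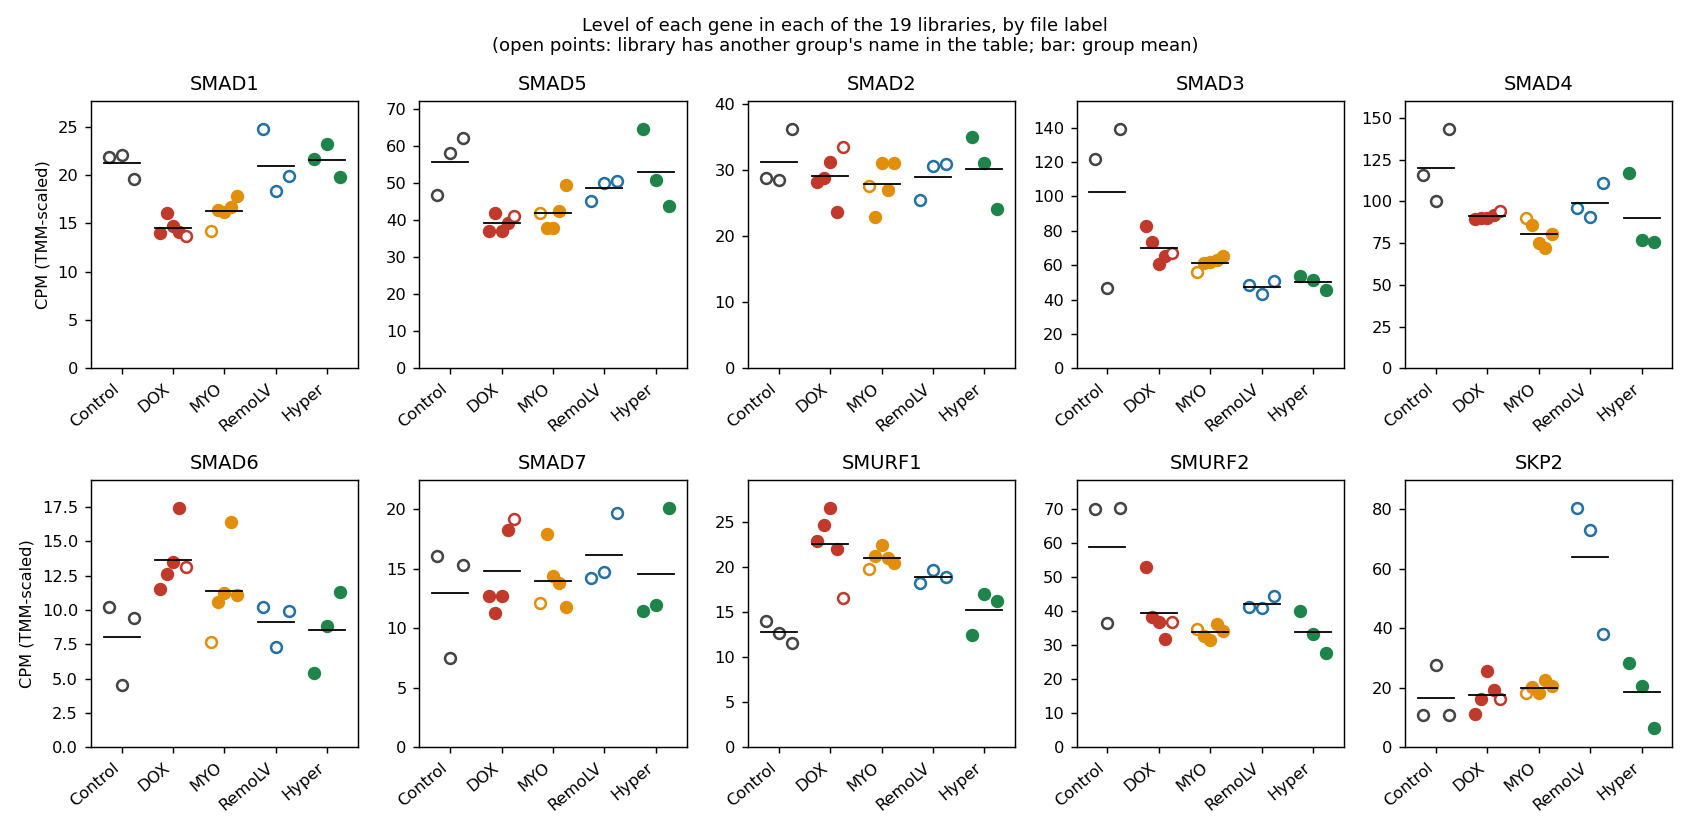
Level of each of the 10 genes (vertical axis, TMM-scaled CPM from 0) in each of the 19 libraries by file label (horizontal axis), with open points for libraries that carry another group's name in the authors' table and a bar for the group mean. SMAD1 lies at 13.7 to 17.8 CPM in all 10 DOX and MYO libraries, below every other library, while SMAD3, SMURF2 and SKP2 are spread widely within Control.

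The spread within Control was uneven. Control 2 stood apart from Control 1 and 3 in 5 members. SMAD3 was at 122, 46.9 and 139 CPM in Control 1, 2 and 3, SMURF2 at 70.0, 36.6 and 70.2 CPM and SKP2 at 10.8, 27.6 and 10.9 CPM. Control 2 thus had less SMAD3 and SMURF2 and more SKP2 than its fellows, and lay inside the range of the other groups for these 3 genes. SMAD6 was at 10.2, 4.51 and 9.38 CPM and SMAD7 at 16.1, 7.48 and 15.3 CPM, and for both inhibitory SMADs Control 2 was the lowest of all 19 libraries. The coefficient of variation within Control was 58.1% for SKP2 and 47.7% for SMAD3, larger than in 93.8% and 88.6% of all genes tested, whereas that of SMAD1 was 6.53%, larger than in only 9.61%. Its median over the 10 members was 25.5% in Control, 19.0% in Hyper, 14.5% in DOX, 10.6% in RemoLV and 9.22% in MYO, beside 19.3%, 17.3%, 16.0%, 12.3% and 14.0% for all genes. The scaling factors of Control 1 and 3 were 0.735 and 0.696 against 0.965 in Control 2 and 0.834 to 1.178 in the other groups, and the part of this difference in the spread of the members was not tested.

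**Figure D2:**
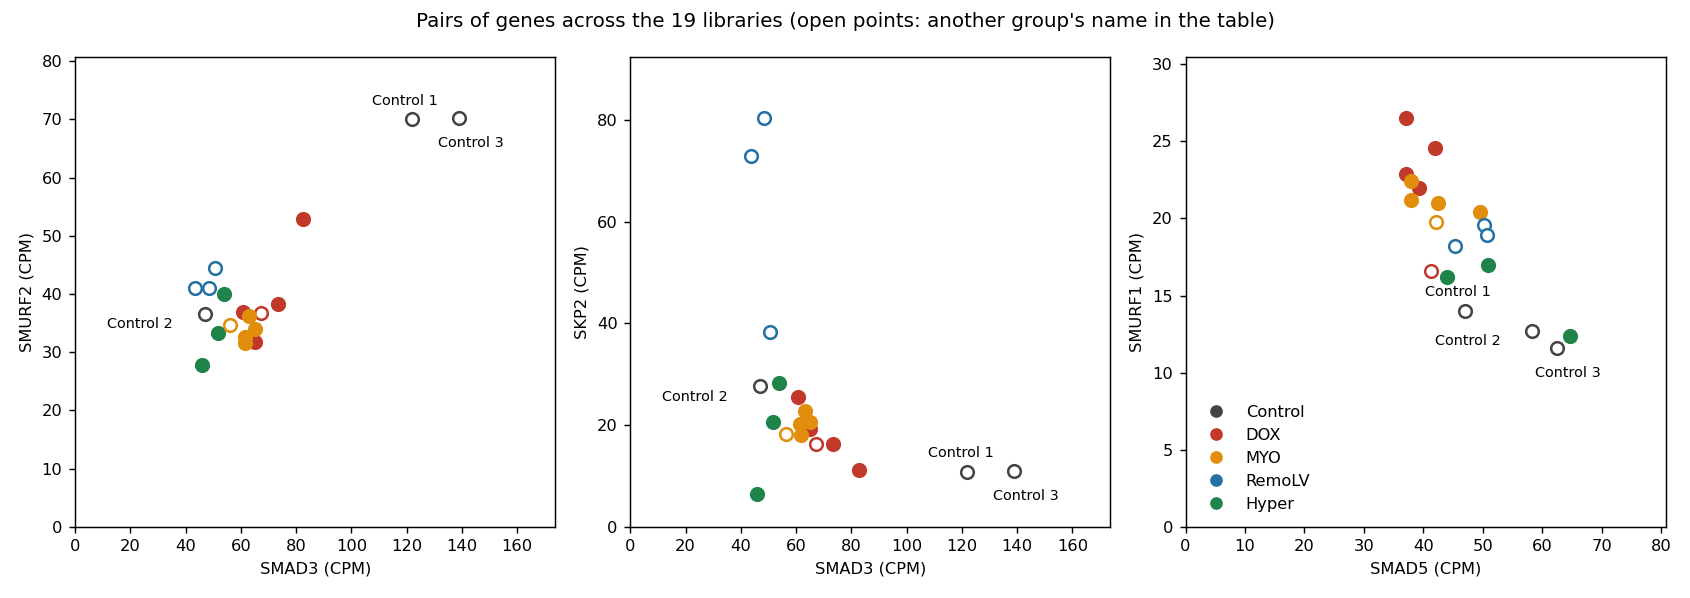
Levels of 3 pairs of genes in the same library (both axes in TMM-scaled CPM), with 1 point per library coloured by file label, open where the table gives another group's name. Control 1 and 3 lie far right with high SMAD3 and SMURF2, Control 2 lies among the other groups in the panels with SMAD3, and the 3 libraries labelled RemoLV have the highest SKP2.

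The BMP transducers were lower in the anthracycline libraries. SMAD1 was at 14.0, 16.1, 14.7, 14.1 and 13.7 CPM in DOX and 14.2, 16.4, 16.2, 16.7 and 17.8 CPM in MYO. It was at 21.9, 22.1 and 19.6 CPM in Control, 21.6, 23.2 and 19.8 CPM in Hyper and 24.7, 18.3 and 19.9 CPM in RemoLV. After TMM scaling the 10 anthracycline libraries therefore did not overlap with the other 9, whichever names the latter carry. On plain library totals they did overlap. Control 3 had 278 SMAD1 reads of 20370209 and MYO 5 had 210 of 10738564, a larger share. How many of all genes separate groups in this way was not counted, for SMAD1 or for the members below. SMAD1 fell by 0.55 ± 0.11 (SE) on the log2 scale in DOX vs. Control (quasi-likelihood test of edgeR, p adjusted over all genes tested by the Benjamini-Hochberg method, adjusted p = 8.67e-04) and by 0.38 ± 0.11 in MYO vs. Control (edgeR, adjusted p = 0.0101). Under table names the log2 fold changes were -0.52 and -0.37 (edgeR, adjusted p = 0.00203 and 0.0186), and SMAD1 was the only member called lower in both drug groups under both namings. In RemoLV and Hyper vs. Control the SMAD1 log2 fold changes were -0.02 and 0.02, with 95% confidence intervals of -0.28 to 0.24 and -0.24 to 0.28.

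SMAD5 was at 37.1, 42.0, 37.1, 39.2 and 41.3 CPM in DOX and 42.1, 38.0, 37.9, 42.5 and 49.6 CPM in MYO. Control had 47.0, 58.3 and 62.4 CPM, Hyper 64.6, 50.8 and 44.0 CPM and RemoLV 45.3, 50.2 and 50.7 CPM. After TMM scaling DOX lay below all 9 non-anthracycline libraries, and MYO overlapped with them through MYO 5 alone. On plain library totals DOX overlapped too, since Control 1 had 630 SMAD5 reads of 18236295, a smaller share than DOX 1 with 594 of 15975201. SMAD5 fell by 0.51 ± 0.12 in DOX and by 0.41 ± 0.12 in MYO vs. Control (edgeR, adjusted p = 0.00305 and 0.0115). With table names the log2 fold changes of -0.30 and -0.22 did not pass (edgeR, adjusted p = 0.0703 and 0.195), and by file label the MYO call was lost without Control 3 (-0.33, edgeR adjusted p = 0.0842).

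Of the TGF-ß transducers, SMAD2 differed little between groups and SMAD3 differed more. SMAD2 was at 23.0 to 33.6 CPM in the anthracycline libraries (n = 10) and at 24.2 to 36.2 CPM in Hyper and Control (n = 6), and its log2 fold changes vs. Control lay between -0.16 and -0.05 by file label. None passed the test under either naming. SMAD3 was at 82.6, 73.4, 60.8, 65.1 and 67.1 CPM in DOX and 56.2, 61.4, 61.6, 63.1 and 65.1 CPM in MYO. Hyper had 53.8, 51.7 and 45.8 CPM and RemoLV 48.5, 43.5 and 50.7 CPM, so that Control 1 and 3 stood above all other libraries and Control 2 among the lowest. By file label SMAD3 fell by 1.11 ± 0.24 in RemoLV, by 0.74 ± 0.21 in MYO and by 0.55 ± 0.21 in DOX vs. Control (edgeR, adjusted p = 0.00126, 0.0100 and 0.0446). With table names the direction turned, to 1.11, 0.42 and 0.51, of which the first passed (edgeR, adjusted p = 0.00146, 0.173 and 0.0967). The DOX call was lost in 16 of 19 fits that each left out 1 library. In 14 of these, each without 1 library of DOX, MYO, RemoLV or Hyper, the value stayed at -0.57 to -0.51 (edgeR, adjusted p = 0.0502 to 0.0873). Without Control 1 or Control 3 the value was -0.41 and -0.27 in DOX (edgeR, adjusted p = 0.197 and 0.377) and -0.60 and -0.45 in MYO (edgeR, adjusted p = 0.0632 and 0.131), and no call was left. Without Control 2 it was -0.90 in DOX and -1.09 in MYO, both called (edgeR, adjusted p = 9.41e-06 and 1.47e-06).

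SMAD4, the partner of both pathways, was at 89.6, 90.1, 90.1, 91.9 and 93.9 CPM in DOX, a coefficient of variation of 1.94%. MYO had 90.1, 85.6, 75.3, 71.9 and 80.4 CPM and Control 116, 100 and 143 CPM, without overlap between Control and either drug group after TMM scaling. On plain library totals both drug groups overlapped with Control. Control 1 had 1557 SMAD4 reads of 18236295, a smaller share than DOX 2 (1063 of 10531616) and MYO 1 (1137 of 11683806). Hyper had 117, 77.1 and 75.8 CPM and RemoLV 95.9, 90.8 and 111 CPM. SMAD4 fell by 0.57 ± 0.13 in MYO and by 0.40 ± 0.13 in DOX vs. Control (edgeR, adjusted p = 0.00255 and 0.0249), and with table names by 0.29 and by 0.14, which did not pass (edgeR, adjusted p = 0.129 and 0.485). Without Control 3 the DOX value was -0.25 and was not called (edgeR, adjusted p = 0.208).

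The inhibitory SMADs showed no common change. SMAD6 was at 11.5 to 17.4 CPM in the 5 DOX libraries and 7.68 to 16.4 CPM in MYO, against 10.2, 4.51 and 9.38 CPM in Control. It rose by 0.77 ± 0.28 in DOX vs. Control (edgeR, adjusted p = 0.0320), and its log2 fold change of 0.51 ± 0.27 in MYO did not pass (edgeR, adjusted p = 0.146). The DOX call was lost without DOX 4 (0.66, edgeR adjusted p = 0.0730), without Control 2 (0.47, edgeR adjusted p = 0.156) and with table names (0.47, edgeR adjusted p = 0.224). It was also lost with a block for the replicate number in the fit. SMAD7 was at 11.3 to 19.2 CPM in DOX, 11.8 to 17.9 CPM in MYO, 14.2 to 19.7 CPM in RemoLV, 11.5 to 20.1 CPM in Hyper and 7.48 to 16.1 CPM in Control, groups that all overlap. Its largest log2 fold change vs. Control by file label was 0.32 in RemoLV (95% confidence interval -0.27 to 0.91). It was -0.32 with table names (-0.90 to 0.26), and 0.03 by file label without Control 2.

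The 2 SMURF genes moved in opposite directions in DOX and MYO vs. Control by file label. SMURF1 was at 22.9, 24.6, 26.5, 22.0 and 16.6 CPM in DOX and 19.8, 21.2, 22.4, 21.0 and 20.4 CPM in MYO. RemoLV had 18.2, 19.6 and 18.9 CPM, Hyper 12.4, 17.0 and 16.2 CPM and Control 14.0, 12.7 and 11.6 CPM, the lowest group. SMURF1 rose by 0.82 ± 0.14 in DOX, 0.72 ± 0.14 in MYO and 0.57 ± 0.15 in RemoLV vs. Control (edgeR, adjusted p = 1.93e-04, 5.71e-04 and 0.00507). With table names it was 0.29 and 0.10 in DOX and MYO (edgeR, adjusted p = 0.0895 and 0.574) and fell by 0.57 ± 0.14 in RemoLV (edgeR, adjusted p = 0.00342).

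SMURF2 was at 52.8, 38.3, 36.9, 31.8 and 36.7 CPM in DOX and 34.7, 32.6, 31.6, 36.2 and 34.0 CPM in MYO. RemoLV had 41.1, 41.0 and 44.4 CPM and Hyper 40, 33.3 and 27.8 CPM, and only Control 1 and 3 reached 70 CPM. SMURF2 fell by 0.80 ± 0.18 in MYO and by 0.58 ± 0.18 in DOX vs. Control (edgeR, adjusted p = 0.00190 and 0.0152). With table names the values of -0.30 and -0.12 did not pass (edgeR, adjusted p = 0.240 and 0.676). Without Control 1 or 3 the DOX call was lost (both -0.44, edgeR adjusted p = 0.0985 and 0.113), whereas the MYO call was retained (both -0.66, edgeR adjusted p = 0.0176 and 0.0218). Without Control 2 the values were -0.84 in DOX and -1.05 in MYO (edgeR, adjusted p = 2.85e-04 and 3.48e-05).

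SKP2 set the libraries labelled RemoLV apart. It was at 80.3, 72.9 and 38.2 CPM there, above all 16 others, which ranged from 6.50 to 28.2 CPM with a median of 18.8 CPM. DOX had 11.2, 16.2, 25.5, 19.3 and 16.2 CPM and MYO 18.3, 20.3, 18.1, 22.7 and 20.6 CPM. Hyper had 28.2, 20.5 and 6.50 CPM, a 4.34-fold range within 1 group. By file label SKP2 rose by 1.95 ± 0.43 in RemoLV vs. Control, a 3.87-fold difference (edgeR, adjusted p = 0.00123), and by 1.80 ± 0.43 in RemoLV vs. Hyper (edgeR, adjusted p = 0.00320). The RemoLV vs. Control difference was still called without each Control library in turn, at 1.72 to 2.55. With table names these libraries are the Control, and SKP2 fell vs. Control in every group, by 1.95 in RemoLV, 1.82 in DOX, 1.80 in Hyper and 1.71 in MYO (edgeR, adjusted p = 0.00126, 0.00112, 0.00325 and 0.00189). Beside SKP2, the summed level of the 9 atrial markers found was 9822 to 13150 CPM in these 3 libraries and 214 to 2520 CPM in the others, that of the 7 ventricular markers 25126 to 29262 CPM against 45315 to 75117 CPM, and that of the 8 fibroblast markers 5237 to 5894 CPM against 1027 to 4102 CPM. Of the atrial markers tested 8 of 8 and of the fibroblast markers 5 of 8 were called higher in RemoLV vs. Control, beside 23.1% of all genes, and the atrial MYBPHL was at 3 counts or fewer in all groups but RemoLV. Of 9 cardiomyocyte markers of both chambers 7 were lower and 1 higher, beside 24% of all genes called lower. Macrophage markers had 4 of 6 higher and 1 lower, endothelial markers 3 of 9 lower and erythroid markers 3 of 3 lower, with none higher in the last 2 lists. The part of these in the SKP2 level was not tested, and fewer cells of a type and less RNA per cell cannot be told apart in bulk tissue.

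**Figure D3:**
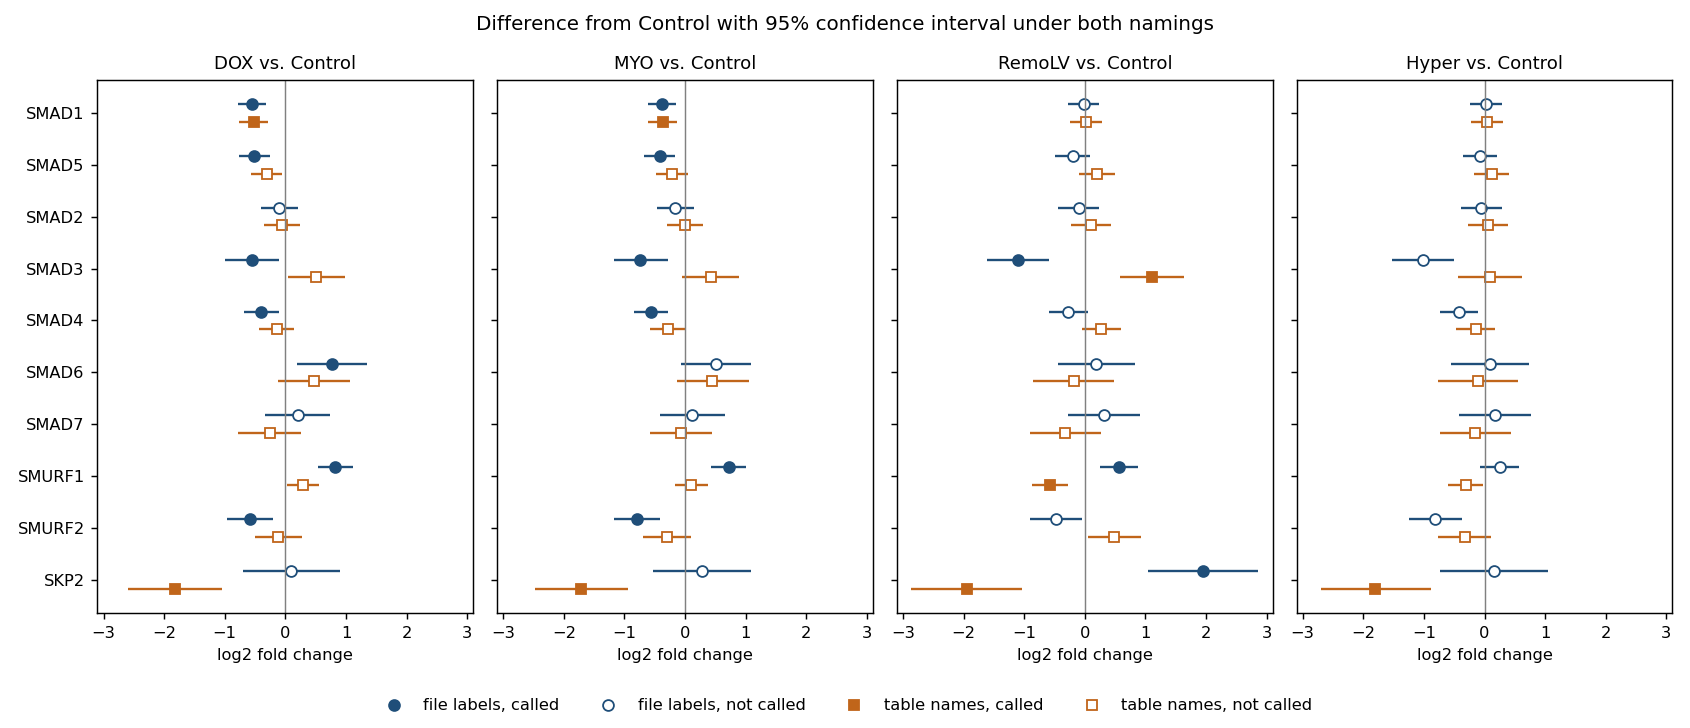
Log2 fold change of each gene vs. Control (horizontal axis) with its 95% confidence interval in 4 comparisons, as circles by file label and squares by table name, filled where the adjusted p was at most 0.05. SMAD1 stays in place under both namings in all panels, while SMAD3 and SKP2 change sides or size, with SKP2 in RemoLV at 1.95 by file label and -1.95 by table name.

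Counted over the set, 7 of 10 members passed in DOX vs. Control by file label, beside 42.1% of all genes tested. The 2 that were higher stand beside 21% of genes and the 5 that were lower beside 21.1%. In MYO vs. Control 6 passed (42.4% of genes), 1 higher (20.7%) and 5 lower (21.7%). Without Control 3 the lower calls were 2 in DOX and 3 in MYO, with the share of all genes in that fit not given here. In RemoLV vs. Control 3 passed (47.2%), 2 higher (23.1%) and 1 lower (24%), and DESeq2 added SMURF2 at -0.50 (adjusted p = 0.0499), beside 48.5% of genes called. The median log2 fold change of the members was -0.25 in DOX, -0.27 in MYO and -0.06 in RemoLV, with 0.03, 0.02 and 0.02 over all genes. With table names 2 members passed in DOX (29.6% of genes), both lower (14.6%) and none higher (15%), and 2 in MYO (29.2%), both lower (14.4%) and none higher (14.8%). In RemoLV 3 passed (47.2%), 1 higher (24%) and 2 lower (23.2%). Without Control 2, SMURF2 at -0.74 and SMAD4 at -0.39 were also called in RemoLV vs. Control by file label (edgeR, adjusted p = 0.00127 and 0.0455), and without DOX 1 so was SMURF2 at -0.48 (edgeR, adjusted p = 0.0378). These comparisons share the Control libraries and are not independent of each other. Cell type markers moved beside the members vs. Control by file label. Of 9 tested cardiomyocyte markers of both chambers, 6 were lower and 2 higher in DOX and 5 lower and 1 higher in MYO (medians -0.49 and -0.48), with summed levels of 31532 to 42648 CPM in DOX, 33900 to 40111 CPM in MYO and 38038 to 50624 CPM in Control. In DOX, 4 of 6 macrophage markers rose and 1 fell, while MYO had 1 called each way, with summed levels of 190 to 406, 169 to 271 and 204 to 268 CPM, and no marker of either list was at 3 counts or fewer throughout any of these groups. With table names 5 cardiomyocyte markers rose and 2 fell in DOX, 6 rose and none fell in MYO, while no macrophage marker was called in DOX and 2 were lower in MYO. By file label the erythroid markers were lower in 3 of 3 in DOX and 1 of 3 in MYO (medians -2.38 and -1.68), with summed levels of 8.49 to 112, 12.8 to 197 and, in Control, 36.5 to 352 CPM. The endothelial markers had 3 called each way of 9 in DOX and 2 each way in MYO, and 2 of 4 proliferation markers were higher in both. Fibroblast markers had 2 of 8 higher in both drug groups and 1 lower in MYO, the smooth muscle and pericyte list had 1 of 6 called each way in both, and no lymphocyte marker of 3 tested was called. Of 8 atrial markers tested 2 were higher in both and none lower, with summed levels of 1219 to 2520 CPM in DOX, 877 to 1358 CPM in MYO and 214 to 266 CPM in Control. Of 7 ventricular markers 2 were higher in both and 1 was lower in MYO. With table names no erythroid, proliferation, lymphocyte or smooth muscle and pericyte marker was called in these comparisons. The fibroblast list then had 5 of 8 markers lower for DOX, 6 of 8 for MYO and none higher (medians -0.87 and -0.91). All 8 atrial markers tested were lower under those names, and 6 of 7 ventricular markers were higher, for either drug. Among the 9 endothelial markers, DOX had 5 raised and MYO had 4, with 1 reduced for each drug. The part of these markers in the members' values was not tested.

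In Hyper vs. Control no member passed by file label, nor did any other gene (0% of 13552, edgeR). At an unadjusted p under 0.05, 2418 genes and 3 members stood: SMAD3 at -1.02 ± 0.24, SMURF2 at -0.81 ± 0.21 and SMAD4 at -0.42 ± 0.15. DESeq2 called 312 genes, 2.5% of those it tested, SMAD3 (adjusted p = 0.00845) and SMURF2 (adjusted p = 0.0192) among them. The edgeR calls of members in this comparison changed when Control 2 or Hyper 1 was left out. Without Control 2, edgeR called 18.4% of genes, with SMAD3 at -1.37, SMURF2 at -1.06 and SMAD4 at -0.53 (adjusted p = 1.20e-05, 7.26e-04 and 0.0273), and without Hyper 1 it called 5.6% and the same 3 members. With table names only SKP2 passed, beside 35.8% of genes called, 18.7% higher and 17.2% lower.

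The free and the liposomal drug, given at the same dose and sampled at the same time, gave no called difference in any of the 10 members. Nor did any other gene pass by edgeR (0%). At an unadjusted p under 0.05 there were 960 genes and 0 members, and DESeq2 called 2 genes (0.0148%), neither of them a member. The intervals bound what could have been missed. In DOX vs. MYO the 95% confidence interval of the log2 difference was -0.37 to 0.04 for SMAD1, -0.32 to 0.13 for SMAD5, -0.07 to 0.42 for SMAD4, -0.21 to 0.58 for SMAD3 and -0.14 to 0.35 for SMURF1. It was -0.22 to 0.75 for SMAD6, -0.38 to 0.54 for SMAD7, -0.12 to 0.55 for SMURF2 and -0.20 to 0.32 for SMAD2. It was widest for SKP2, at -0.87 to 0.52. With table names, which exchange DOX 5 and MYO 1, it was -0.36 to 0.06 for SMAD1, -0.04 to 0.42 for SMURF1 and -0.81 to 0.58 for SKP2, and edgeR again called no member and no other gene (0%).

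In RemoLV vs. Hyper SKP2 was the only member called by file label, beside 35.6% of all genes tested, 17% higher and 18.6% lower. SMURF1 at 0.31 ± 0.15 (edgeR, adjusted p = 0.113) and SMURF2 at 0.32 ± 0.21 (edgeR, adjusted p = 0.236) did not pass. With table names edgeR called no gene here (0%). An unadjusted p under 0.05 was reached by 2465 genes and 3 members, and SKP2 stood at -0.16 ± 0.43. By file label SMAD4 was also called without Hyper 1, at 0.37 (edgeR, adjusted p = 0.0450).

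Both drug groups together were compared with Hyper, in which each arm holds the same libraries under either naming, so that the values can hardly differ between namings. SMURF1 rose by 0.52 ± 0.12, SMAD1 fell by 0.49 ± 0.10 and SMAD5 fell by 0.39 ± 0.11 (edgeR, adjusted p = 0.00430, 0.00114 and 0.0112). With table names the values were 0.51, -0.49 and -0.39 and the same 3 members passed. By file label 32.6% of all genes were called, 15.8% higher and 16.9% lower, and by table name 32.7% (15.8% and 16.9%), so that 3 of 10 is close to the background share. SMURF1 was at 16.6 to 26.5 CPM in the 10 drug libraries and 12.4 to 17.0 CPM in Hyper, touching only through DOX 5. SMAD3 at 0.38 ± 0.20 (edgeR, adjusted p = 0.157) had the opposite sign to its folds vs. Control by file label and the same sign as those by table name. Hyper 1 mattered here, since without it SMAD5 was at -0.22 and not called (edgeR, adjusted p = 0.182). Without Hyper 3 SMAD6 was called at 0.81 and without Control 2 SMAD3 at 0.38 (edgeR, adjusted p = 0.0434 and 0.00443).

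Against the 6 libraries of Hyper and Control together, which are Hyper and RemoLV by table name, a comparison chosen after seeing the data, 5 members passed, 2 higher and 3 lower, beside 50.7% of all genes (25.8% higher, 25% lower). SMURF1 rose by 0.64 ± 0.10 and SMAD6 by 0.59 ± 0.19, while SMAD1 fell by 0.48 ± 0.08, SMAD5 by 0.42 ± 0.09 and SMAD4 by 0.28 ± 0.10 (edgeR, adjusted p = 3.40e-05, 0.0162, 7.94e-05, 5.63e-04 and 0.0226). With the names of the table used in the fit, the arms hold the same libraries and the same 5 passed, which is no check of the naming, beside 50.9% of genes (25.8% higher, 25.1% lower). Without Hyper 1 SMAD4 at -0.16 and SMAD6 at 0.47 were not called (edgeR, adjusted p = 0.118 and 0.0556), nor was SMAD4 at -0.20 without Control 3 (edgeR, adjusted p = 0.0957). Without Control 2 SMAD3 at -0.31 and SMURF2 at -0.42 were called (edgeR, adjusted p = 0.00239 and 0.00242), and SMURF2 also without DOX 1 (-0.37, edgeR adjusted p = 0.0152) and without Hyper 3 (-0.35, edgeR adjusted p = 0.0399).

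**Figure D4:**
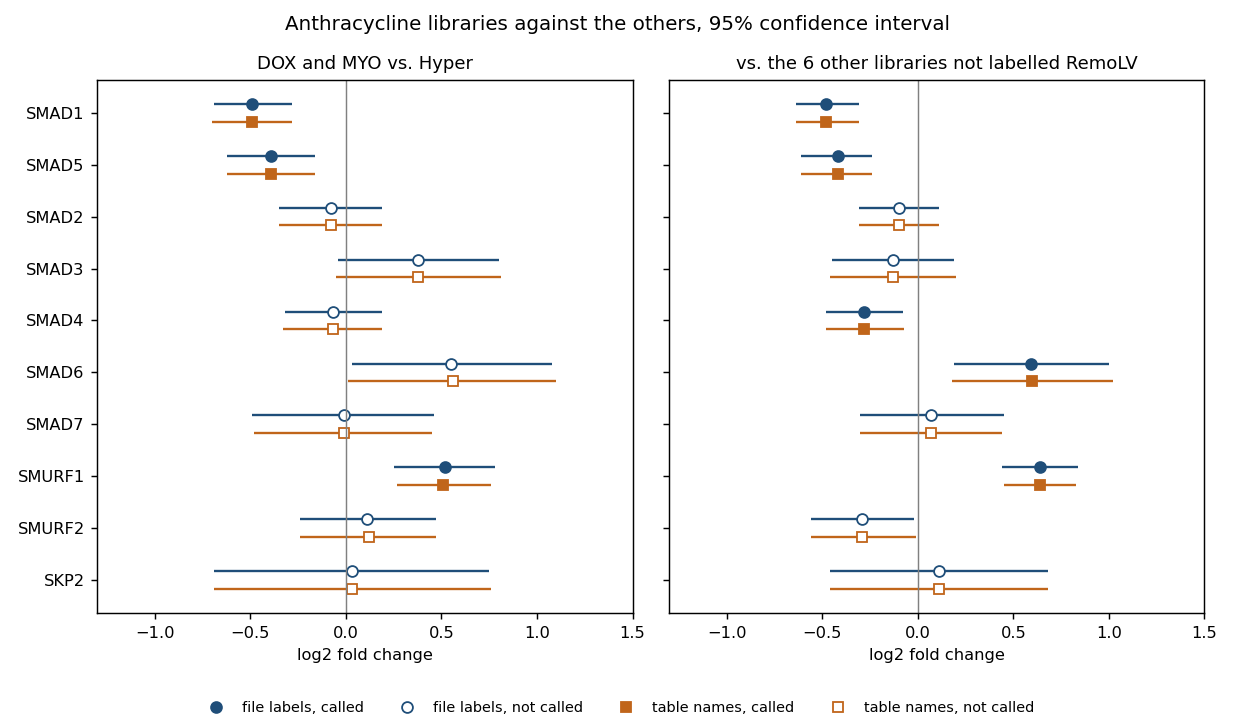
Log2 fold change of each gene (horizontal axis) with its 95% confidence interval between the 10 DOX and MYO libraries and Hyper (left) or the 6 libraries labelled Hyper and Control (right), under both namings and filled where the adjusted p was at most 0.05. Both namings nearly coincide because the arms hold the same libraries, with SMAD1 at -0.49 and SMURF1 at 0.52 and 0.51 in the left panel.

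Across the 19 libraries, which share scaling, depth differences and the group structure above, some members varied together. Pearson's r of log2 CPM was 0.78 for SMAD4 and SMURF2, 0.76 for SMAD3 and SMURF2 and 0.71 for SMAD1 and SMAD5, the BMP pair. The inhibitory pair SMAD6 and SMAD7 had 0.56 and the TGF-ß pair SMAD2 and SMAD3 0.28. SMURF1 had negative r with all 5 transducers, at -0.83 with SMAD5, -0.64 with SMAD1, -0.63 with SMAD4, -0.38 with SMAD2 and -0.20 with SMAD3, and its r with SMURF2 was -0.42. Among all genes with a symbol, the one most like SMAD3 was STAT3 (r = 0.93), followed by AKAP12 and SBNO2 (both 0.91). OSMR (0.92), the oncostatin M receptor, and HIF1A (0.89), the oxygen-regulated transcription factor, were most like SMURF2, APH1B (0.92) and S100PBP (0.90) most like SKP2, TRIM28 (0.95) and PLXNB2 (0.94) most like SMURF1, and CLIC4 and NPTN (both 0.93) most like SMAD4. SMAD1 was closest to PHYKPL and NME7 (both 0.90) and SMAD5 to CRBN and SPOP (both 0.93), whereas SMAD2 (NEBL, 0.76) and SMAD7 (CAMKV, 0.78) had no gene above 0.80.

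**Figure D5:**
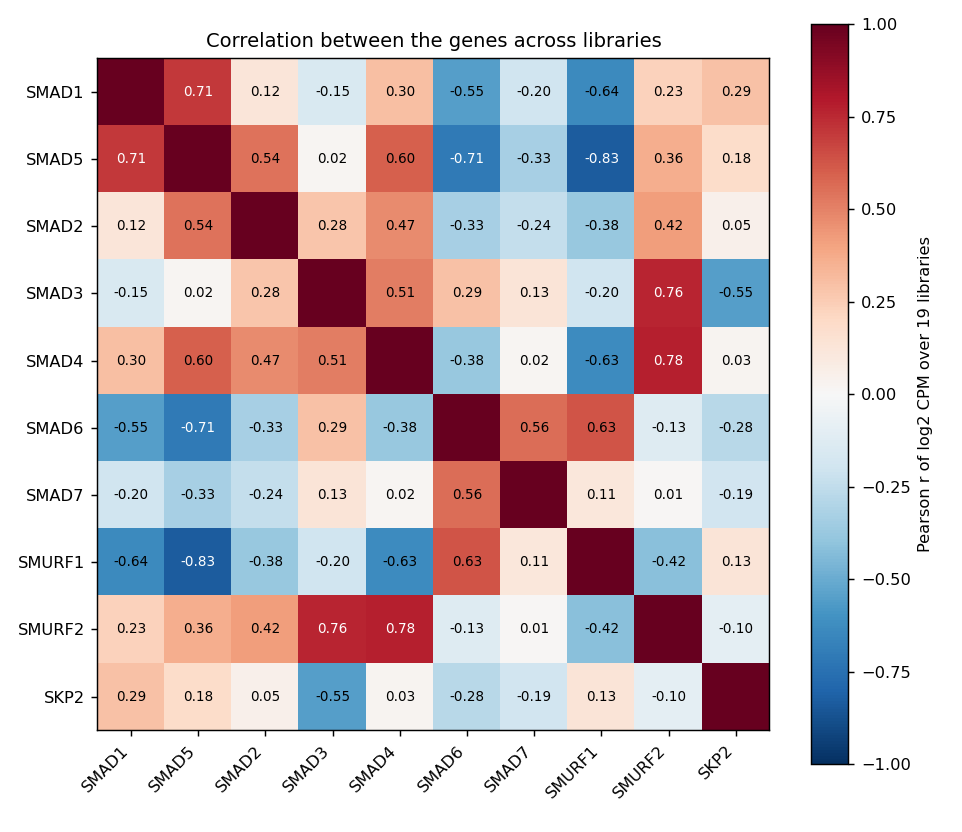
Pearson correlation of log2 CPM between the 10 genes over 19 libraries, from blue (negative) to red (positive), with the value in each cell. The strongest positive value is 0.78 for SMAD4 with SMURF2 and the strongest negative one -0.83 for SMAD5 with SMURF1.

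The rest of the pathway gives the setting, and in DOX and MYO vs. Hyper each count below stands beside 15.8% of all genes called higher and 16.9% called lower. In DOX and MYO vs. Hyper, the receptors had 1 higher and 1 lower of 12 tested, ACVR1B, a type I activin receptor, at 0.45 ± 0.11 and BMPR1B, a type I BMP receptor, at -1.02 ± 0.24 (edgeR, adjusted p = 0.00599 and 0.00333). Of 11 ligands 5 were higher and 2 lower, with TGFB3 at 1.20 ± 0.35, BMP6 at 0.67 ± 0.16, BMP4 at -0.75 ± 0.22 and the muscle growth inhibitor MSTN at -1.63 ± 0.39 (edgeR, adjusted p = 0.0147, 0.00440, 0.0157 and 0.00394). Table names left 4 ligands higher and 2 lower. The 18 co-repressors and nuclear antagonists were split, with 3 higher and 3 lower. SKI, a co-repressor that binds SMAD3 and SMAD4, rose by 0.73 ± 0.13 and the homeodomain co-repressor TGIF2 by 0.88 ± 0.23, while PPM1A, a phosphatase of receptor-activated SMADs, fell by 0.46 ± 0.14 (edgeR, adjusted p = 4.61e-04, 0.00722 and 0.0153).

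Of 16 further ubiquitin ligases, SCF subunits and deubiquitinases, 5 were lower and none higher in DOX and MYO vs. Hyper, beside 16.9% and 15.8% of all genes. They were led by USP9X, a deubiquitinase of SMAD4, which fell by 0.85 ± 0.11, and RBX1, the RING subunit that works with SKP2 in SCF, which fell by 0.43 ± 0.08 (edgeR, adjusted p = 1.84e-05 and 5.56e-04). Vs. Control by file label, 9 of these genes fell and 1 rose in DOX, while 10 fell and none rose in MYO, beside 21.1% and 21.7% of all genes called lower and 21% and 20.7% called higher, with medians of -0.33 and -0.38 beside 0.03 and 0.02 for all genes. With table names only 2 fell in the DOX comparison and 3 in that of MYO, beside 14.6% and 14.4% of all genes, and 1 rose in each, beside 15% and 14.8%. In RemoLV vs. Control 8 fell and 1 rose by file label, beside 24% and 23.1% of all genes, with a median of -0.29, and with table names 1 fell and 8 rose, beside 23.2% and 24%. USP9X fell by 1.14 ± 0.13 and by 1.35 ± 0.13 by file label (edgeR, adjusted p = 3.42e-06 and 5.02e-07) and by 0.51 ± 0.12 and 0.79 ± 0.12 by table name (edgeR, adjusted p = 0.00317 and 6.58e-05). USP9X is X-linked, and the libraries of DOX and MYO, in which it was lower, are also those with counts of the Y-linked DDX3Y, whose part in this result was not tested.

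The TGF-ß target genes were higher in the drug libraries than in Hyper in 7 of 16, beside 15.8% of all genes, with none lower and a median of 1.04 beside 0.03. The matricellular gene CCN2 was at 2.13 ± 0.73, CDKN1A, the p21 cell cycle inhibitor, at 1.60 ± 0.44 and LTBP2, a latent TGF-ß binding protein, at 1.38 ± 0.31 (edgeR, adjusted p = 0.0322, 0.0100 and 0.00249). Vs. Control by file label 6 of 16 were higher and 1 lower in DOX, 4 and 1 in MYO and 7 and 4 in RemoLV. The shares of all genes called higher were 21%, 20.7% and 23.1% and those called lower 21.1%, 21.7% and 24%, so that the count higher in MYO is close to the background. In the first, the collagen genes COL1A1 and COL3A1 rose by 1.28 ± 0.30 and 1.06 ± 0.26 (edgeR, adjusted p = 0.00240 and 0.00312) and SKIL, a SMAD co-repressor that is itself a target, fell by 0.82 ± 0.24 (edgeR, adjusted p = 0.0123). With table names the RemoLV counts were 4 higher and 7 lower (24% and 23.2% of all genes), and those of DOX 2 higher and 4 lower (15% and 14.6%). Those of MYO were 2 higher and 6 lower (14.8% and 14.4%), with a median of -0.24 against 0.31 by file label. Fibroblast markers moved beside these lists, at 2414 to 4102 CPM in DOX and 2333 to 3445 CPM in MYO against 1027 to 2137 CPM in Hyper, and their part was not tested. The fibroblast list shares COL1A2 and COL1A1, its most abundant gene in these groups, with the TGF-ß target genes.

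Of 12 BMP target genes tested, 2 were higher and 1 lower in DOX and MYO vs. Hyper, near the shares of all genes (15.8% and 16.9%), with HEYL at 0.99 ± 0.28 and ATOH8 at -0.49 ± 0.15 (edgeR, adjusted p = 0.0121 and 0.0167). Among the 11 tested SKP2 substrates and cell cycle genes, 3 were higher and 1 lower in the same comparison. The proliferation gene MKI67 rose by 1.70 ± 0.44, the topoisomerase TOP2A by 1.46 ± 0.38 and CDT1, a replication licensing factor degraded through SKP2, by 1.68 ± 0.58, while CDKN1B, which encodes p27, fell by 0.47 ± 0.12 (edgeR, adjusted p = 0.00649, 0.00696, 0.0331 and 0.00685). SKP2 itself stood at 0.03 ± 0.34 there. In RemoLV vs. Control by file label, where SKP2 was called higher, MKI67 and TOP2A rose by 1.55 ± 0.51 and 1.21 ± 0.44 and CCND1, the cyclin D1 gene, fell by 1.89 ± 0.21 (edgeR, adjusted p = 0.0179, 0.0293 and 1.98e-06), and the signs are opposite with table names. The summed level of the 4 proliferation markers was 20.4 to 46.5 CPM in DOX, 14.2 to 24.5 CPM in MYO, 7.13 to 44.4 CPM in RemoLV, 7.63 to 15.2 CPM in Hyper and 9.38 to 9.73 CPM in Control.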

How the data were processed

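RNA from myocardium of 19 pigs was sequenced, 1 library per pig. The authors aligned the read pairs with STAR to Sscrofa11.1, counted them per Ensembl gene with HTSeq 0.11.1 with strand taken into account, and deposited raw counts for 25879 genes without normalization. A second deposited file lists, for 14744 genes, log2-like transformed expression per sample, used here only to tie its sample names to the count files, and with the log2 fold changes and adjusted p-values of their DESeq2 comparisons, which were not used.

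Samples were grouped by the labels of the count files. In R 4.3.3, counts were scaled by TMM and filtered by filterByExpr in edgeR 4.0.16, and all 5 groups were fitted in 1 model without a block by the quasi-likelihood test, with Benjamini-Hochberg adjustment over 13552 genes. A gene was called at an adjusted p of at most 0.05, with no fold threshold. Levels are CPM on the scaled library size. Correlations used log2 CPM with a prior count of 2. Alternatives were the table names, DESeq2 1.42.0, its size factors, other filters, a replicate block, fits of the compared groups only, fits without each library and fits without the libraries labelled RemoLV, the last chosen after seeing the data. The procedure was tested on simulated data. Tables and figures were made with Python 3.11.15, pandas 2.3.3 and matplotlib 3.10.9.

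The 10 members and the lists of pathway and marker genes were chosen with earlier results of these data known. All members were named, and from each pathway list the genes with the largest called changes. The symbols IPO8, CKS1B, CCNA2, NPPA and TTN had no match in the table and were not analysed here. Depth was 9527710 to 20370209 counts per library. Since labels name 1 pig per library, replicates are animals.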

Additional observations from a re-analysis of the deposited data

How the results depend on the processing

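The sample names changed most. Under table names the direction of 9 values turned: SMAD3 vs. Control became 0.51 in DOX, 0.42 in MYO and 1.11 in RemoLV, SMURF1 became -0.57 in RemoLV, and SKP2 became -1.95 in RemoLV, -1.82 in DOX, -1.80 in Hyper and -1.71 in MYO vs. Control and -0.16 in RemoLV vs. Hyper. By construction, RemoLV and Control change places in this alternative. The members called became 0 higher and 2 lower in DOX, 0 and 2 in MYO, 1 and 2 in RemoLV and 0 and 1 in Hyper vs. Control, and 0 higher in RemoLV vs. Hyper. Of the 60 values of members whose comparison holds other libraries under table names, 19 kept direction and side of the threshold and 23 changed sign with no call in either naming. Of 17 calls by file label in these comparisons, 12 were lost, among them SMAD3 in DOX and MYO vs. Control and SKP2 in RemoLV vs. Hyper, whose sign also turned, and 3 were gained, SKP2 in DOX, MYO and Hyper vs. Control. The 20 values of DOX and MYO together vs. Hyper or vs. Hyper and Control rest on the same libraries under both namings and could hardly change.

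The DESeq2 test called 2 members lower in RemoLV and 2 in Hyper vs. Control. DESeq2 size factors and the fit without a filter changed no call in 80 values each, and at least 10 counts in every library changed 1 sign without a call. The fit of only the groups compared gave 3 lower in DOX vs. Control and 2 higher in DOX and MYO vs. Hyper. Replicate numbers share only a number: 4 of 32 same-numbered pairs of libraries had a correlation of deviations over 0.1 (median 0.007, range -0.246 to 0.242). With the replicate block, members called were 1 higher and 3 lower in DOX vs. Control and 1 higher in DOX and MYO vs. Hyper and Control, and the other counts stayed within 1.5 times. In DOX vs. Control the block ended the calls of SMAD6, SMAD4 (-0.37, edgeR adjusted p = 0.0668) and SMAD3 (-0.50, edgeR adjusted p = 0.118). Without the 3 libraries labelled RemoLV, 1 of 60 values of members lost its call. CPM on plain library totals moved 19 of 50 group means by more than 1 SD.

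Leaving out 1 library at a time, the members called ranged from 1 to 2 higher and 2 to 5 lower in DOX vs. Control, 3 to 5 lower in MYO, 1 to 3 lower in RemoLV and 0 to 3 lower in Hyper. They ranged from 1 to 2 higher in RemoLV vs. Hyper, 1 to 2 higher and 1 to 2 lower in DOX and MYO vs. Hyper, and 1 to 2 higher and 2 to 5 lower in DOX and MYO vs. Hyper and Control. Apart from the SMAD3 call in DOX vs. Control, calls changed without Control 1, 2 or 3, Hyper 1 or 3 and DOX 1 or 4. No SMAD1 or SMURF1 call was lost in the 19 fits, whereas the SMAD3 call in DOX vs. Control was lost in 16 of them. The lowest member count was 76 reads, in SMAD6. The cause of these changes was not tested.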
